A study of Homo sapiens with 8 samples.

Results

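The 10 autophagy genes SQSTM1, NBR1, MAP1LC3B, GABARAPL1, GABARAPL2, WIPI1, ULK1, ATG12, ATG5 and BECN1 were followed by symbol through the deposited mRNA-seq counts of HCT116, an established human colorectal cancer cell line. All 10 were listed in both deposited tables, of 42125 genes in the siRNA experiment and 23393 in the Dox experiment, which share 21258 symbols, and all 10 passed the expression filter in both. Every library came from the same HCT116 line, which stably carries a Tet-On shRNA against UBA2 (named SAE2 in the sample labels), the catalytic subunit of the SUMO E1 enzyme. In the siRNA experiment, the cells received control siRNA or siRNA against the transcription factor TFAP2C (TFAP2C KD) for 48 hrs. In the Dox experiment, the cells were given doxycycline (Dox) at 1 μg/mL, which switches on the shRNA, or DMSO as its control, each for 5 days. Each of the 4 groups had 2 replicates, and nothing in the labels says that replicates were separate cultures, so the tests measure the spread between these libraries, which may be technical. No group received Dox without the shRNA, so that effects of Dox itself and of the shRNA cannot be told apart.

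Autophagy carries cytoplasmic material to the lysosome inside a double membrane vesicle, the autophagosome. The ULK1 kinase starts the process, a lipid kinase complex that holds BECN1 makes PI3P on the growing membrane, WIPI proteins bind this lipid, and ATG12 joined to ATG5 helps to attach proteins of the ATG8 family (MAP1LC3B, GABARAPL1, GABARAPL2) to the membrane. Receptors such as SQSTM1 (also called p62) and NBR1 hold ubiquitin-tagged cargo and bind the ATG8 proteins, and are degraded together with it. The level of these mRNAs is not a measure of how fast autophagosomes are formed or degraded.

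The promoters of the 3 ATG8 members and of ATG12 are shown, since these hold the 3 genes whose mRNA differed with Dox and the ATG8 member that did not pass the test. Each is the 250 bases before the RefSeq start on GRCh38.p14, on the strand of the gene, and capitals mark matches to any of 4 motifs that were searched. MAP1LC3B lies at chr16:87392086-87392335 on the plus strand, GABARAPL1 at chr12:10212627-10212876 on the plus strand, GABARAPL2 at chr16:75566129-75566378 on the plus strand and ATG12 at chr5:115841566-115841815 on the minus strand.
MAP1LC3B: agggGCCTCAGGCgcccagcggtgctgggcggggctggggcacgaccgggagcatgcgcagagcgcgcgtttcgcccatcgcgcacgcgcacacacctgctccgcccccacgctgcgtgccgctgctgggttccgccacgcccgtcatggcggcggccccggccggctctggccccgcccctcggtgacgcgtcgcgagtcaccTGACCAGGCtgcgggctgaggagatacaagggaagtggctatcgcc
GABARAPL1: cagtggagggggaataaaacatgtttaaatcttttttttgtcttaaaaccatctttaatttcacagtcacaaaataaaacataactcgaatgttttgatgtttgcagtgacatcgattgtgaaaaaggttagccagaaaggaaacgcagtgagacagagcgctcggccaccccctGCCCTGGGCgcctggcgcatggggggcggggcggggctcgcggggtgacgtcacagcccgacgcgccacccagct
GABARAPL2: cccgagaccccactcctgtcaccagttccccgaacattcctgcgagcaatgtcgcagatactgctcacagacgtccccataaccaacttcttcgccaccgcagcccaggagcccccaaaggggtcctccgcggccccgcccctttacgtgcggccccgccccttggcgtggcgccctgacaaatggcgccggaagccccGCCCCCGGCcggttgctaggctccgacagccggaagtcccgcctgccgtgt
ATG12: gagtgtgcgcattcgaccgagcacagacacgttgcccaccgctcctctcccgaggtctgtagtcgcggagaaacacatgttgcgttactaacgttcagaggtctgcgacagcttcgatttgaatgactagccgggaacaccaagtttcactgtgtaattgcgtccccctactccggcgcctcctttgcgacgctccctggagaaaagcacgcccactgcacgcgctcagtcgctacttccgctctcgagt

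The motifs were GCCNNNGGC for AP-2, the family of TFAP2C, CACGTG for the E-box core that TFEB and related factors bind, TGATGNAA for C/EBP-ATF and TGACNNNGC for the antioxidant element, each read on both strands in windows of 300 bases, from 250 before to 50 after a start. The capitals at 246 bases before the start of MAP1LC3B, at 75 before that of GABARAPL1 and at 51 before that of GABARAPL2 are AP-2 matches, and those at 46 before the start of MAP1LC3B are an antioxidant match. No match in these windows overlapped that of another motif. Among the 14 windows that RefSeq gives for the 10 genes, the AP-2 letters were found in 4, which belong to these 3 genes and WIPI1, and they were found in 23.2% of all 35116 promoter windows. The antioxidant letters were found in the window of MAP1LC3B only, and in 13.3% of all windows. The E-box and C/EBP-ATF letters were found in 0 of the 14 windows, and in 7.26% and 3.62% of all windows. A match is only a stretch with these letters, and binding was not measured here.

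Total counts lay between 20785035 and 24465109 per library in the siRNA experiment and between 18213739 and 20607813 in the Dox experiment. TFAP2C itself fell from 18.9 and 20.5 CPM (counts scaled to the size of the library) with control siRNA to 3.46 and 4.30 CPM in TFAP2C KD (log2 fold change -2.34, SE 0.13, edgeR quasi-likelihood adjusted p = 7.67e-06). UBA2 had 162 and 146 CPM in the control and 147 and 153 CPM with Dox (log2 fold change -0.04, SE 0.06, adjusted p = 0.766), and the groups overlapped. The libraries with Dox are therefore called the libraries labelled UBA2 KD throughout. The replicates of TFAP2C KD stood apart from each other, with a chi-square of 9.09 per degree of freedom between their counts, against 2.55 to 2.76 between the replicates of the other 3 groups. The epithelial genes EPCAM, CDH1, KRT8 and KRT18 lay between 79.0 and 1145 CPM in all libraries, while DCN was at 0 counts and PTPRC, CD3E and PECAM1 were at most at 0.806 CPM. COL1A1, a fibroblast collagen gene, had 14.9 to 47.5 CPM, and its part in the results was not tested. In mRNA of many cells, fewer cells that express a gene and less mRNA per cell cannot be told apart.

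Together the 10 genes held 0.126% of the counts in each control siRNA library and 0.129% and 0.135% in TFAP2C KD. In the Dox experiment they held 0.0902% and 0.0904% in the control and 0.0936% and 0.0945% in the libraries labelled UBA2 KD. Levels of different genes were compared as RPKM, which is CPM divided by the length in kb that the table gives for the gene. With control siRNA, SQSTM1 was highest at 59.4 ± 2.25 RPKM (SD, n = 2), and ATG12 followed at 27.7 ± 0.664 RPKM. GABARAPL2 with 20.2 RPKM, NBR1 with 18.8, MAP1LC3B with 15.8 and WIPI1 with 13.4 formed the middle of the order. GABARAPL1 and BECN1 overlapped at 11.4 and 11.3 RPKM, and ULK1 and ATG5 were lowest at 7.41 and 6.87 RPKM. The highest level was 8.65 times the lowest, and only GABARAPL1 and BECN1 were neighbours whose replicates overlapped. The order rests on the lengths of this table, since with those of the other table GABARAPL2 had 60.9 RPKM, above the 53.8 RPKM of ATG12.

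In the control of the Dox experiment, GABARAPL2 was highest at 58.3 ± 1.97 RPKM (SD, n = 2), above SQSTM1 at 48.1 ± 1.04 RPKM. ATG12 and BECN1 overlapped at 32.2 and 31.8 RPKM, and MAP1LC3B followed at 29.9 RPKM. ATG5 had 17.99 RPKM and NBR1 had 14.1. WIPI1 with 8.72 RPKM, GABARAPL1 with 7.85 and ULK1 with 6.15 were the 3 lowest, and the range from highest to lowest was 9.47-fold. The tables give different lengths for the same gene, such as 3.005 kb and 0.998 kb for GABARAPL2, and with the length of the other table GABARAPL2 had 19.4 RPKM in this control, below the 39.0 RPKM of SQSTM1. RPKM was therefore not compared between the experiments.

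**Figure D1:**
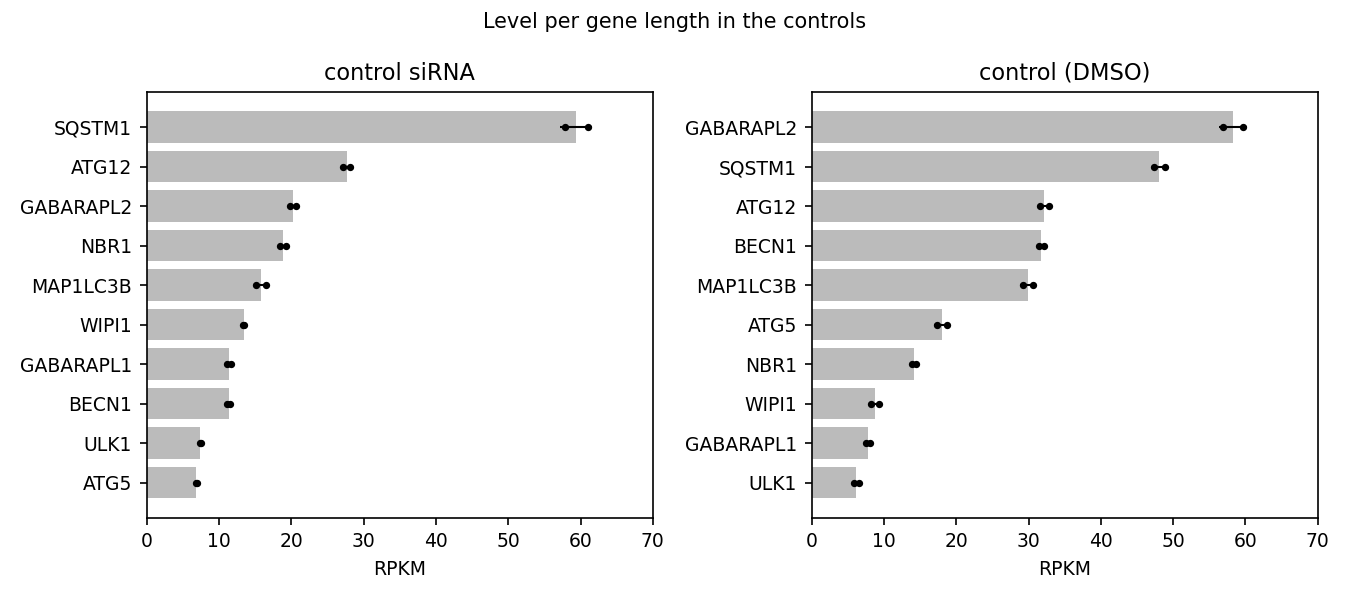
Bars give the mean RPKM (horizontal axis) of each of the 10 genes in the controls of the siRNA experiment (left) and of the Dox experiment (right), points give the 2 replicates, and lines give 1 SD to each side. SQSTM1 leads on the left at 59.4 RPKM, GABARAPL2 leads on the right at 58.3 RPKM, and the gene lengths behind the panels differ.

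The first comparison asks whether these mRNAs depend on TFAP2C. None of the 10 genes passed an adjusted p of 0.05 in TFAP2C KD (edgeR quasi-likelihood test, Benjamini-Hochberg adjustment over 14991 genes), a result also given by the Wald test of DESeq2, and 1 gene, SQSTM1, was under 0.05 before adjustment. Before adjustment 1889 of all 14991 genes were under 0.05. After adjustment 0.74% of all genes tested were called, 0.26% as higher and 0.48% as lower. Log2 fold changes of the 10 genes ran from -0.05 to 0.18 with a median of 0.05, against a median of -0.004 over all genes. In 6 of the 10 both TFAP2C KD libraries lay above both controls and in 0 below, and the groups did not overlap in 44.7% of all genes tested. Of all 14991 genes, 3353 were higher without overlap and 3354 lower.

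Among the receptors, SQSTM1 (chromosome 5, 179806398 to 179838078 on GRCh38) had 435 and 459 CPM with control siRNA and 526 and 485 CPM in TFAP2C KD. Both knockdown libraries were above both controls. The log2 fold change was 0.18 (SE 0.07, 95% confidence interval 0.03 to 0.33), which corresponds to 13.2%, with an edgeR adjusted p of 0.319. Without TFAP2C KD replicate 2 it was 0.24, and without replicate 1 it was 0.12, so the size depended on which replicate was kept. Each of these fits leaves 1 knockdown library. NBR1 (chromosome 17, 43170481 to 43211689), which is built like SQSTM1 and works beside it, had 161 and 154 CPM with control siRNA and 170.3 and 169 CPM in TFAP2C KD. These groups did not overlap either, and the log2 fold change was 0.11 (SE 0.07, edgeR adjusted p = 0.531). NBR2, which lies near NBR1, and MAP1LC3B2, a near copy of MAP1LC3B, overlapped between the groups at log2 fold changes of -0.10 (SE 0.19) and -0.15 (SE 0.13).

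The ATG8 members lie on the autophagosome membrane, where receptors dock. MAP1LC3B (chromosome 16, 87383953 to 87404779 on GRCh38), whose protein LC3B is the usual marker of autophagosomes, had 75.9 and 83.3 CPM with control siRNA and 77.2 and 76.2 CPM in TFAP2C KD. The groups overlapped, with a log2 fold change of -0.05 (SE 0.08, 95% confidence interval -0.22 to 0.11). GABARAPL1 (chromosome 12, 10212458 to 10223128) had 47.1 and 44.97 CPM in the controls and 47.9 and 47.3 CPM in the knockdown, and GABARAPL2 (chromosome 16, 75566375 to 75577881) had 59.4 and 62.1 CPM and then 62.6 and 65.2 CPM. In both genes the knockdown libraries were slightly higher without overlap, by 0.05 (SE 0.08) for GABARAPL1 and 0.07 (SE 0.08) for GABARAPL2 on the log2 scale. Adjusted p-values of the 3 ATG8 genes in edgeR lay between 0.730 and 0.830.

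ATG12 and ATG5 encode the partners of the conjugate that assists the lipidation of ATG8 proteins. ATG12 (chromosome 5, 115828200 to 115841837 on GRCh38) had 249 and 241 CPM with control siRNA, and 220.4 and 287 CPM in TFAP2C KD. The knockdown replicates lay on opposite sides of both controls. The log2 fold change of ATG12 was 0.05 (SE 0.10, adjusted p = 0.879 in edgeR), and it was 0.23 without TFAP2C KD replicate 1 and -0.15 without replicate 2. In ATG5 (chromosome 6, 106045423 to 106325791) the knockdown replicates also lay on opposite sides, with 39.3 and 38.2 CPM in the controls and 35.8 and 41.9 CPM in the knockdown. Its log2 fold change was 0.002 (SE 0.09, 95% confidence interval -0.20 to 0.20).

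Of the genes that act at the start of the autophagosome, ULK1 (chromosome 12, 131894622 to 131923150 on GRCh38), the initiating kinase, had 55.7 and 56.9 CPM with control siRNA and 57.9 and 56.1 CPM in TFAP2C KD, and the groups overlapped. BECN1 (chromosome 17, 42810134 to 42833350), the scaffold of the lipid kinase complex, had 74.0 and 71.2 CPM and then 74.6 and 74.1 CPM. WIPI1 (chromosome 17, 68420948 to 68457513), the PI3P binding protein, had 45.5 and 45.3 CPM and then 47.3 and 46.4 CPM. BECN1 and WIPI1 were higher in the knockdown without overlap, but by 0.03 (SE 0.07) and 0.05 (SE 0.08) on the log2 scale, and the adjusted p-values of the 3 genes in edgeR lay between 0.844 and 0.946.

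**Figure D2:**
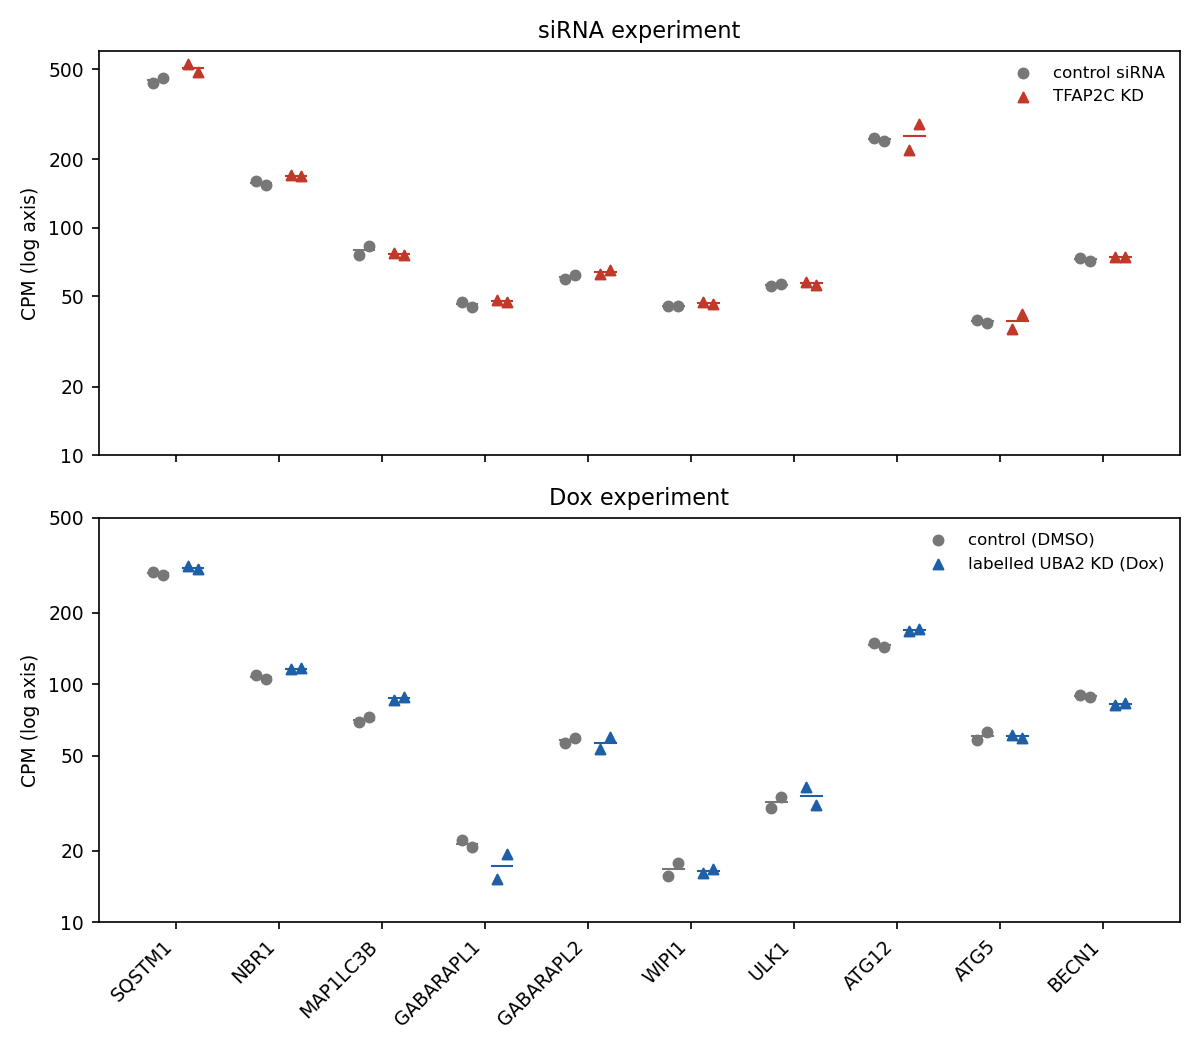
Each point is the CPM (vertical axis, log scale) of a gene in 1 library, with circles for controls, triangles for TFAP2C KD or the libraries labelled UBA2 KD and a line at the mean of the 2 replicates, in the siRNA experiment (top) and the Dox experiment (bottom). ATG12 shows the widest spread between TFAP2C KD replicates at 220.4 and 287 CPM, and MAP1LC3B and ATG12 with Dox lie above both of their controls.

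The second comparison asks how the same mRNAs differed after 5 days of Dox. Of the 10 genes, 3 passed the test in the libraries labelled UBA2 KD. MAP1LC3B and ATG12 rose by 23.2% and 15.4%, and GABARAPL1 fell, with a change of -19.3%. The 3 calls of 10 compare with 9.98% called of the 13381 genes tested, the 2 higher calls with 5.52% and the single lower call with 4.47%. The groups did not overlap in 6 of the 10 genes, 4 higher and 2 lower, against 51.3% of all genes tested. Of all 13381 genes, 3413 were higher without overlap and 3449 lower. The median log2 fold change of the 10 was 0.03, and that of all genes was -0.0004.

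MAP1LC3B (chromosome 16, 87425801 to 87438380 on hg19) had 69.2 and 72.5 CPM in the control and 86.2 and 88.4 CPM in the libraries labelled UBA2 KD. Both libraries with Dox were above both controls, and the gap between the groups was wider than the spread within either. The log2 fold change was 0.30 (SE 0.06, 95% confidence interval 0.18 to 0.42, edgeR adjusted p = 0.000742). It passed the test under all 10 alternative settings that were run, with log2 fold changes from 0.27 to 0.34 and adjusted p-values from 8.85e-05 to 0.0165. Of the 51-base stretches in the protein-coding transcripts of MAP1LC3B, 11.1% are also in MAP1LC3B2, a near copy on chromosome 12, and reads from these cannot be assigned to a single gene. MAP1LC3B2 had 8.12 and 7.86 CPM in the control and 9.11 and 9.99 CPM with Dox, with a log2 fold change of 0.26 (SE 0.13, adjusted p = 0.220).

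GABARAPL1 (chromosome 12, 10365489 to 10375724 on hg19) moved the other way, with 22.2 and 20.7 CPM in the control and 15.2 and 19.3 CPM in the libraries labelled UBA2 KD. Both libraries with Dox were below both controls, and replicate 1 with Dox was the lowest of the 4 libraries. The log2 fold change was -0.31 (SE 0.10, 95% confidence interval -0.52 to -0.10), at an edgeR adjusted p of 0.0499, just under the threshold. The call was lost in 5 of 10 alternatives, with an adjusted p of 0.287 in the DESeq2 Wald test. The log2 fold change was -0.15 when replicate 1 with Dox was left out and -0.26 without control replicate 1. When replicate 2 with Dox was left out, it was -0.49. Each of these fits leaves 1 library in a group. GABARAPL2, its close relative, had 56.8 and 59.6 CPM in the control and 53.4 and 60.0 CPM with Dox, and the groups overlapped (log2 fold change -0.04, SE 0.07, 95% confidence interval -0.18 to 0.10).

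Within each library, the counts of MAP1LC3B were 3.12 and 3.51 times those of GABARAPL1 in the control and 5.67 and 4.58 times in the libraries labelled UBA2 KD. MAP1LC3B was above and GABARAPL1 below both controls in these libraries, so the ratio restates these values and could not overlap. In the siRNA experiment the same ratio was 1.61 and 1.85 with control siRNA and 1.61 in both TFAP2C KD libraries. The ratio is of counts and does not depend on the scaling of the libraries, but it depends on gene length and was compared only within an experiment.

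ATG12 (chromosome 5, 115163894 to 115177548 on hg19) had 149 and 144 CPM in the control and 167 and 171 CPM in the libraries labelled UBA2 KD. Both libraries with Dox were above both controls. The log2 fold change of ATG12 was 0.21 (SE 0.05, 95% confidence interval 0.10 to 0.31, edgeR adjusted p = 0.00803), and it ranged from 0.18 to 0.23 over the alternatives. The call was lost only without control replicate 2, where the adjusted p was 0.125. ATG5, which is joined to ATG12 as a protein, had 58.3 and 63.1 CPM in the control and 61.2 and 59.6 CPM with Dox, and the groups overlapped (log2 fold change -0.01, SE 0.07, 95% confidence interval -0.14 to 0.12).

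The receptors had 297 and 289 CPM of SQSTM1 in the control and 312 and 306 CPM in the libraries labelled UBA2 KD. SQSTM1 did not overlap between the groups, but its log2 fold change of 0.08 (SE 0.05, 95% confidence interval -0.02 to 0.17) did not pass the edgeR test (adjusted p = 0.343). NBR1 had 109 and 105 CPM in the control and 116 CPM in both libraries with Dox. Its groups did not overlap, and the log2 fold change of 0.12 (SE 0.06) had an edgeR adjusted p of 0.195. NBR2, a gene near NBR1 on chromosome 17, rose from 6.89 and 9.59 CPM to 14.8 and 12.1 CPM (log2 fold change 0.70, SE 0.13, adjusted p = 0.000428).

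Among the early genes, BECN1 had 89.9 and 88.1 CPM in the control and 81.7 and 83.3 CPM in the libraries labelled UBA2 KD. It was lower in both libraries with Dox, with a log2 fold change of -0.11 (SE 0.06, 95% confidence interval -0.23 to 0.01, edgeR adjusted p = 0.279). ULK1 had 30.2 and 33.7 CPM in the control and 36.9 and 31.2 CPM with Dox, and WIPI1 had 15.6 and 17.7 CPM and then 16.2 and 16.8 CPM. The groups overlapped in both genes, at log2 fold changes of 0.09 (SE 0.08) and -0.02 (SE 0.10).

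The strand setting of the counting is not given in the sources used here, which bears on members that lie over other genes. In the GENCODE transcripts on GRCh37, 38.7% of the 51-base stretches of SQSTM1 lie opposite to MRNIP, 23.3% of those of WIPI1 opposite to ARSG, 28.4% of those of BECN1 opposite to CNTD1 and PSME3, and 7.54% of those of NBR1 opposite to an antisense gene. Without strand, reads from these parts cannot be told apart from those of the opposite gene. GABARAPL2, ULK1 and ATG5 share 0 stretches, GABARAPL1 shares 0.934% with GABARAPL3 and ATG12 shares 3.47% with other genes. The share is of annotated sequence, not of reads.

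The third comparison tested whether the changes differed between TFAP2C KD and the libraries labelled UBA2 KD, in an edgeR fit of all 8 libraries over 13180 shared genes. None of the 10 genes passed the adjusted threshold, by edgeR or by DESeq2, while 2.37% of all genes passed it in edgeR. Before adjustment MAP1LC3B and GABARAPL1 were under 0.05 in edgeR. The share of all genes at that unadjusted level was not counted, so no excess can be read from these 2. For MAP1LC3B the change in TFAP2C KD less that with Dox was -0.37 on the log2 scale (SE 0.09, 95% confidence interval -0.56 to -0.17), with an adjusted p of 0.0537. It was -0.35 without TFAP2C KD replicate 1 and -0.36 without replicate 2. It passed only in these 2 of the 12 alternatives, each of which leaves 1 TFAP2C KD library. For GABARAPL1 the difference was 0.35 (SE 0.13, 95% confidence interval 0.06 to 0.63), with an adjusted p of 0.241. It was 0.19 when replicate 1 with Dox was left out and 0.53 when replicate 2 with Dox was left out, and it did not pass in any of the 12 alternatives. For ATG12 the difference was -0.17 (SE 0.13, adjusted p = 0.609). It was -0.38 without TFAP2C KD replicate 2 and 0.03 without replicate 1. The other 7 differences lay between -0.08 and 0.13. The experiments also differ in agent, time and counting, which cannot be told apart from the targeted gene in this contrast.

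**Figure D3:**
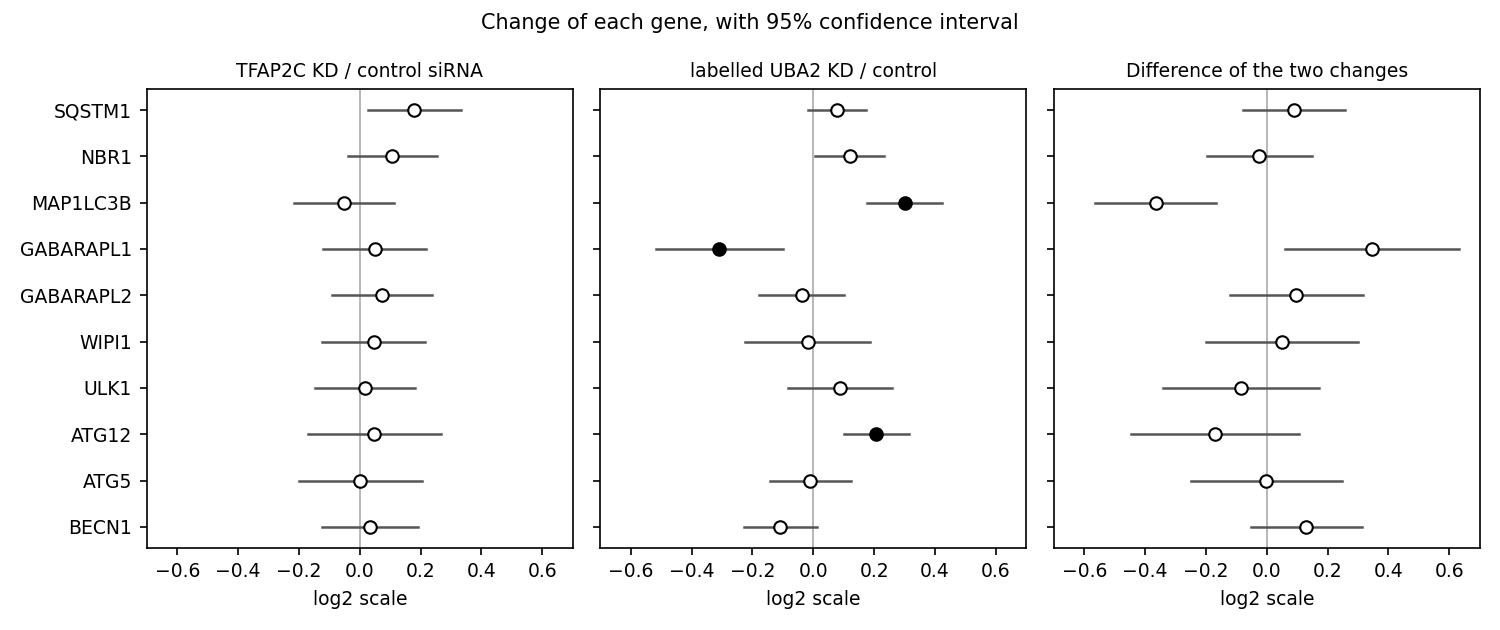
Points give the log2 fold change of each gene in TFAP2C KD (left) and in the libraries labelled UBA2 KD (middle), and the difference between these changes (right), with lines for the 95% confidence interval and filled points for an adjusted p under 0.05. The filled points are MAP1LC3B at 0.30, GABARAPL1 at -0.31 and ATG12 at 0.21, all in the middle panel.

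A list of 79 other autophagy genes in 9 groups by step set these values in the pathway. In each experiment 77 were tested, since MAP1LC3A and MAP1LC3C had too few counts. In TFAP2C KD, 0 of the 77 passed the edgeR test or that of DESeq2, beside 0.74% of all genes in edgeR. Before adjustment 10 of the 77 were under 0.05, beside 1889 of all 14991 genes, with log2 fold changes from -0.36 to 0.24 and a median of 0.02. Up to 8 passed as higher and up to 5 as lower when TFAP2C KD replicate 2 was left out, a setting under which the calls over all genes went from 111 to 2825. In the libraries labelled UBA2 KD, 7 were higher and 3 lower, which is 13.0% of the 77 beside 9.98% of all genes, with a median of 0.04 beside -0.0004 over all genes.

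The 3 largest rises were in regulators that act on mTORC1 or AKT signalling and belong to the stress response. TRIB3, a pseudokinase that binds AKT, had 82.7 and 80.3 CPM in the control and 219 and 195 CPM in the libraries labelled UBA2 KD (log2 fold change 1.35, SE 0.06, edgeR adjusted p = 5.46e-17). SESN2, a leucine sensor that restrains mTORC1, had 25.3 and 27.9 CPM and then 65.2 and 60.0 CPM (log2 fold change 1.23, SE 0.07). DDIT4, another inhibitor of mTORC1, had 108 and 106 CPM and then 244 and 224 CPM (log2 fold change 1.13, SE 0.05). In all 3 genes the groups did not overlap. The change in TFAP2C KD less that with Dox was -1.40 for TRIB3, -1.05 for SESN2 and -1.10 for DDIT4 on the log2 scale, with adjusted p-values from 8.91e-05 to 0.000363 in edgeR. The 3 genes were named for their large change with Dox, and this contrast uses the same libraries. The choice therefore favoured a difference in this direction. The 6 other tested regulators did not pass with Dox, where 9.98% of all genes were called.

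Of the 12 receptors on the list, 2 were called as lower, BNIP3 and BNIP3L, and 2 as higher, CALCOCO2 and TAX1BP1. Over all genes tested, 4.47% were called as lower and 5.52% as higher. FUNDC1 had a log2 fold change of -0.04 (edgeR adjusted p = 0.870) with overlapping groups. BNIP3 had 23.0 and 26.6 CPM in the control and 15.9 and 17.6 CPM in the libraries labelled UBA2 KD (log2 fold change -0.57, SE 0.10, edgeR adjusted p = 7.43e-05), and BNIP3L had 71.2 and 76.9 CPM and then 48.3 and 54.1 CPM (log2 fold change -0.53, SE 0.07). The change in TFAP2C KD less that with Dox was 0.75 (adjusted p = 0.00448) and 0.50 (adjusted p = 0.0378) on the log2 scale. BNIP3 and BNIP3L were also named for their change with Dox, which favoured a difference in this direction. CALCOCO2 and TAX1BP1, receptors for ubiquitin-tagged cargo as SQSTM1 and NBR1 are, were called as higher at log2 fold changes of 0.31 (SE 0.05) and 0.20 (SE 0.06), and these were named after their values had been seen. CALCOCO2 had 112 and 117 CPM in the control and 142 and 143 CPM with Dox, without overlap, and TAX1BP1 had 127 and 119.6 CPM and then 138 and 145 CPM, with its call lost in 3 of 10 alternatives. The remaining 8 of the 12 receptors did not pass the test with Dox. For CALCOCO2 and TAX1BP1 the change in TFAP2C KD less that with Dox did not pass. It was -0.30 (edgeR adjusted p = 0.0733) for CALCOCO2 and -0.21 (edgeR adjusted p = 0.516) for TAX1BP1 on the log2 scale.

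ATG4C, a protease that processes ATG8 proteins, fell from 21.3 and 20.2 CPM to 16.7 and 16.9 CPM (log2 fold change -0.31, SE 0.09, edgeR adjusted p = 0.0328), and the call was lost in 5 of 10 alternatives. RB1CC1, a subunit of the ULK1 complex, and CTSL, a lysosomal protease, were called as higher at log2 fold changes of 0.19 and 0.22, also named after their values had been seen, and these calls were lost in 6 and 4 of 10 alternatives. In the groups for the PI3K complex, lipid transfer and fusion, 0 of 7, 9 and 14 genes passed with Dox, beside 9.98% of all genes. In each of these small groups, 0 is not far from that share. TRIB3, SESN2, DDIT4, BNIP3, BNIP3L and CALCOCO2 kept an adjusted p under 0.05 in all 10 alternatives. For ATG4C, RB1CC1 and CTSL the change in TFAP2C KD less that with Dox did not pass. On the log2 scale it was 0.16 for ATG4C (edgeR adjusted p = 0.709) and -0.36 for RB1CC1 (edgeR adjusted p = 0.446). For CTSL it was -0.26 (edgeR adjusted p = 0.226). NBR2, also called as higher with Dox, did not pass in this contrast either, at -0.81 (SE 0.27).

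**Figure D4:**
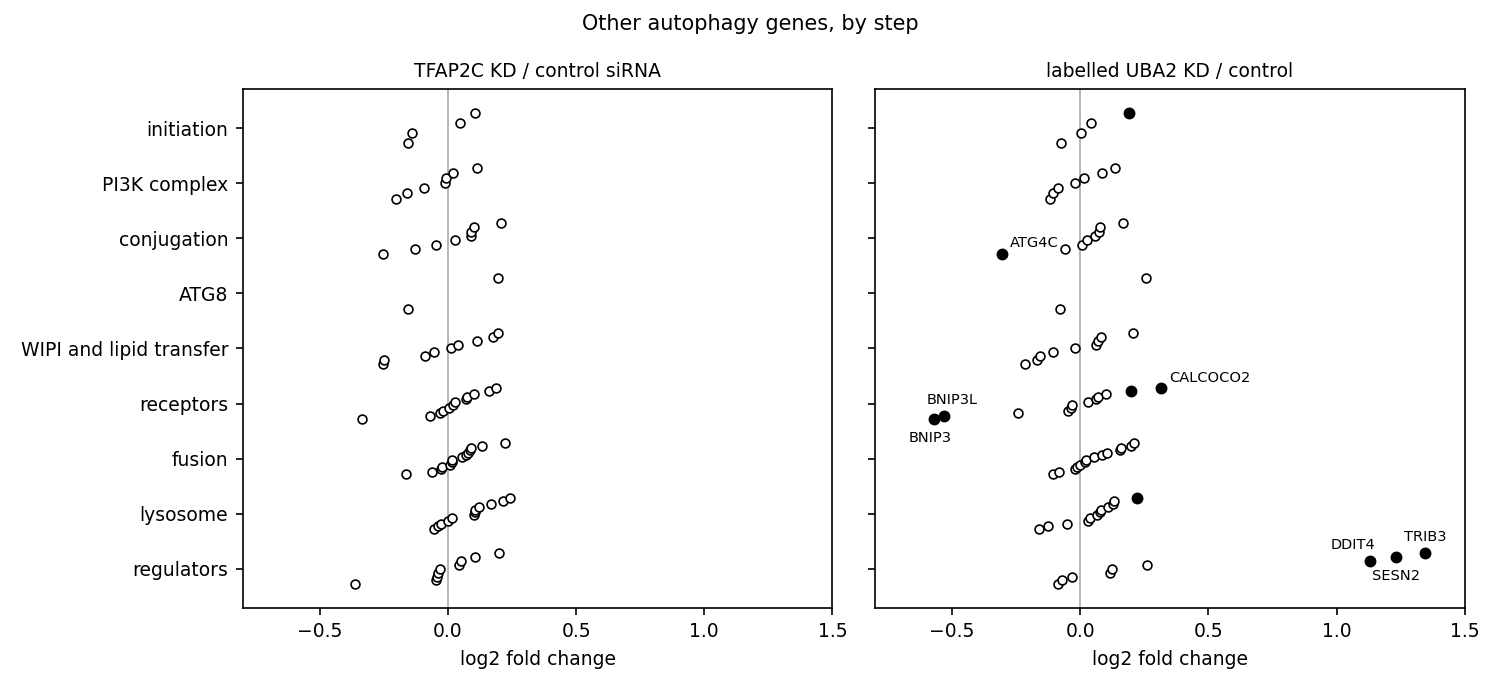
Each point is the log2 fold change (horizontal axis) of 1 of 77 other autophagy genes, grouped by step of the pathway, in TFAP2C KD (left) and in the libraries labelled UBA2 KD (right), with filled points for an adjusted p under 0.05. The left panel has 0 filled points, and the right panel has 10, with TRIB3, SESN2 and DDIT4 above 1 and BNIP3 and BNIP3L below -0.5.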

How the data were processed

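mRNA was sequenced from 8 libraries of HCT116 cells with 51-base single-end reads. Per the labels, reads were aligned with TopHat2 and counted with HTSeq 0.9.1, and hg19 is named as the build. The authors deposited 1 table of counts per experiment, whole numbers of reads per gene without normalization, with a column of gene length in kb, another kind of value, used here for RPKM only. The siRNA table carries GRCh38 positions and the Dox table hg19 positions, so the tables were fitted separately. The strand setting is not given in the sources used here. All count columns belonged to a sample, and 1 older symbol was replaced.

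Genes with low counts were removed by filterByExpr (edgeR 4.0.16 in R 4.3.3), libraries were scaled by TMM, and groups were compared with the quasi-likelihood test, two-sided, with Benjamini-Hochberg adjustment over all genes tested at a threshold of 0.05. A fit of all 8 libraries tested whether the change in TFAP2C KD differed from that in the libraries labelled UBA2 KD. Each standard error is the size of the log2 fold change over the root of its F statistic. With 2 libraries per group, depth and this number limit the precision, and intervals cover the spread between libraries. DESeq2 1.42.0, other scalings and filters, a replicate block and leaving out each library were alternatives. The code was tested on simulated data.

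The 10 genes and all lists were chosen with earlier results of these data known. Named are the 10 genes, TFAP2C and UBA2, near copies or neighbours of the 10, and of the other autophagy genes up to 3 per direction with the largest change among those called, with groups that did not overlap and a mean of 1 or more log2 CPM. The rule does not cover CALCOCO2, TAX1BP1, RB1CC1, CTSL and FUNDC1, which were chosen with their values in view. The near copy BECN2 had 0 counts in the siRNA table and GABARAPL3 at most 3 counts in the Dox table, so neither was tested. Promoters are from RefSeq, and transcripts from GENCODE on GRCh37. Amino acid sequences were not used here.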

Additional observations from a re-analysis of the deposited data

How the results depend on the processing

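The 10 genes gave 100 values under the alternatives in TFAP2C KD, of which 89 kept direction and side of the threshold, 2 passed the test and 9 changed sign. For the libraries labelled UBA2 KD these were 88 kept, 6 lost and 6 with a changed sign of 100, and for the difference between these changes 105 kept, 3 gained and 12 with a changed sign of 120. All sign changes were in genes that did not pass the test. With library size only, ULK1 and ATG5 were at -0.0112 and -0.0256 in TFAP2C KD. The difference of ATG5 was 0.00953 with library size only, 0.00457 with DESeq2 size factors and 0.00489 with the DESeq2 Wald test. Leaving out each library in turn, values in TFAP2C KD ranged from -0.118 to 0.00659 for MAP1LC3B, -0.00529 to 0.0439 for ULK1, -0.15 to 0.226 for ATG12, -0.113 to 0.112 for ATG5 and -0.00222 to 0.0625 for BECN1. In the libraries labelled UBA2 KD they ranged from -0.125 to 0.0443 for GABARAPL2, -0.104 to 0.0802 for WIPI1, -0.0361 to 0.206 for ULK1 and -0.0627 to 0.0504 for ATG5. Differences ranged from -0.0447 to 0.0117 for NBR1, -0.0472 to 0.146 for WIPI1, -0.203 to 0.0476 for ULK1, -0.383 to 0.0273 for ATG12 and -0.129 to 0.13 for ATG5. Called genes among the 10 ranged from 0 to 1 in TFAP2C KD and from 0 to 2 for the difference, and other autophagy genes called in TFAP2C KD from 0 to 8 as higher and 0 to 5 as lower. The DESeq2 Wald test called 4 other autophagy genes as higher in the libraries labelled UBA2 KD, against 7. The cause was not tested.

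Over all genes, calls in TFAP2C KD went from 111 to 398 without a filter, 172 with the block, 49 without control siRNA replicate 1, 74 without control siRNA replicate 2, 537 without TFAP2C KD replicate 1 and 2825 without TFAP2C KD replicate 2, and those in the libraries labelled UBA2 KD from 1336 to 673 with DESeq2 and 833 without control replicate 2. Replicates with the same number deviated together with a correlation of -0.139 in the siRNA experiment and 0.0744 in the Dox experiment, and the labels give no pairing, so the numbers were not taken as pairs. With the replicate block, 0 of the 10 genes passed in TFAP2C KD, 3 with Dox and 0 for the difference, and ATG5 was at -0.00157 in TFAP2C KD.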
